A study of Mus musculus with 5 samples.

Results

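Fast labeled 3′ UTR intervals are the intervals of the SLAMseq tables of cardiac fibroblasts (CF) in which the largest share of T positions was read as C after labeling with 4-thiouridine (S4U). They were chosen by their T>C conversion rate: an interval needed at least 300 covered T positions in each of the 3 labeled libraries and a pooled rate of at least 0.048 conversions per covered T. Of 40428 distinct intervals, 8874 had this coverage and are called eligible here, and 285 intervals of 203 genes reached the rate. These are 3.21% of the eligible intervals and 3.65% of the 5563 eligible genes. Since the rule used the rates of the labeled libraries, these rates are given as a description and were not tested.

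CF were isolated from healthy adult male C57Bl/6J wildtype hearts by collagenase perfusion and grown to confluency. In 3 libraries, called labeled 1 to 3, CF had been incubated for 12 h with 0.1 mM S4U, and in 2 libraries, called unlabeled 1 and 2, they had been incubated in parallel without S4U. RNA of both groups was alkylated with iodoacetamide, wells were pooled within a sample, and 3′ end libraries with unique molecular identifiers were sequenced. Cultured CF are a model of the resident fibroblast outside the heart, and nothing in the labels says which libraries came from the same hearts, so that p-values measure the spread between these libraries.

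S4U is a uridine analog that cells build into RNA while they transcribe. Alkylated S4U pairs with G in place of A during reverse transcription, and the base is then read as C. The T>C rate of a transcript therefore rises with the share of its molecules made during labeling, and short-lived transcripts, as well as transcripts whose synthesis increases during labeling, come close to full replacement. Short-lived messengers are typically those of growth factors, chemokines, transcription factors and cell cycle genes, and many carry AU-rich elements in the 3′ UTR, which are bound by proteins that recruit the deadenylation machinery.

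Taking a single interval for each gene, the libraries held 506045 reads (labeled 3, the shallowest) to 1843033 reads (unlabeled 1, the deepest). The rate over all intervals was 0.0353, 0.0358 and 0.0356 in labeled 1 to 3 and 0.00111 and 0.000652 in unlabeled 1 and 2. The 11 fibroblast markers summed to 32222 to 43401 CPM relative to counted reads, and none of them was at 0. Endothelial markers summed to 115 to 238 CPM, immune markers to 76.1 to 146, mural markers to 7.53 to 15.8, cardiomyocyte markers to 2.17 to 8.03, and mesothelial markers to 0.634 to 4.34. Msln and Krt19, which mark mesothelium, were at 0 in every library. Fewer cells of a type and less RNA per cell cannot be told apart in such bulk libraries.

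The eligible intervals had a median pooled rate of 0.0388, and the 285 fast labeled intervals lay in the upper tail with a median of 0.0499 and a highest value of 0.0664. The highest rates were those of Tagln (0.0664), Ptgs2 (0.0651), the interval named Kirrel (0.0620) and Cdk1 (0.0616). The members of the rule together had 0.0505, 0.0509 and 0.0515 conversions per covered T in labeled 1 to 3, so that the labeled libraries differed little in their sum. In unlabeled 1 and 2 the same intervals had 0.00120 and 0.000651. At a depth of 1000 covered T positions or more per labeled library, the members just inside the threshold were Arpc1a (0.04804), Cct4 (0.04805) and Cpne1 (0.0481), and just outside were Rtn4 (0.0479), Ptpn12 (0.0478) and Cct2 (0.0478). The Wilson 95% interval of Cct4, 0.0439 to 0.0525, and that of Cct2, 0.0451 to 0.0506, both contained the threshold, so this border was finer than the counting error. These intervals cover counting error only.

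**Figure D1:**
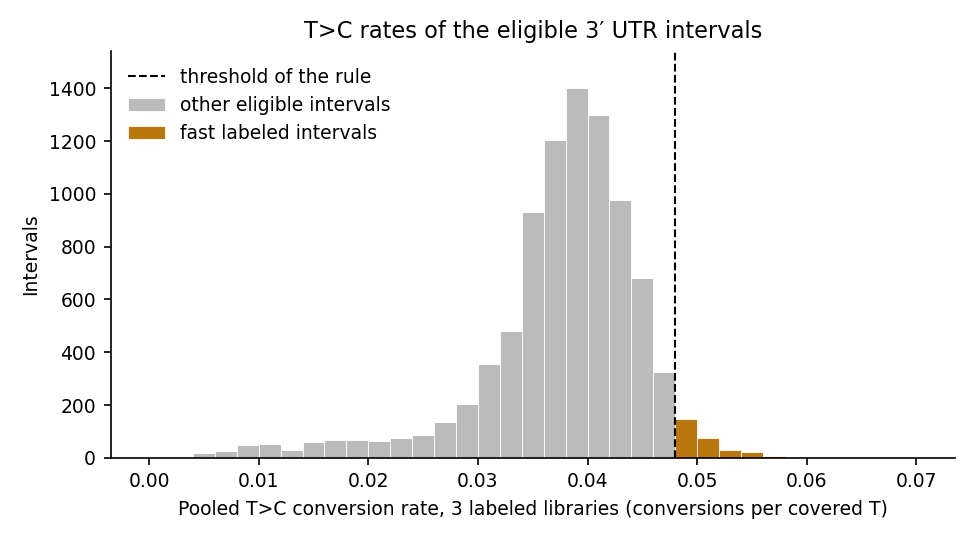
Number of eligible 3′ UTR intervals (vertical axis) by pooled T>C conversion rate over the 3 labeled libraries in conversions per covered T (horizontal axis, bins of 0.002), with fast labeled intervals in brown, other eligible intervals in grey and the threshold as a dashed line. The fullest bin, from 0.038 to 0.04, holds 1402 intervals, and of the fast labeled intervals 146 lie in the bin from 0.048 to 0.05.

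The 285 intervals were not 285 independent measurements. A single fast labeled interval was listed for 137 genes, while 53 had a pair and 13 had 3 or more, with at most 4, and intervals of a gene that held the same reads in all 5 libraries counted once left 221. The members lay on 20 chromosomes, 256 of 285 fell within a last exon of the annotated gene and 274 belonged to protein-coding genes. The other 11 intervals carry a gene name, such as Dars, Hars or Kirrel, that the annotation used here does not hold. Of the 203 genes, 14 also had eligible intervals below the threshold, 25 in all, among them Nfix, Etv6, Npm1, Zwint and Steap2.

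The following 30-base stretches of GRCm39, given 5′ to 3′ on the transcript strand, show the AU-rich heptamer nearest the start of 6 fast labeled intervals of abundant or signaling genes. Capitals mark the heptamer TATTTAT, and each stretch holds between 11 and 18 T, the base at which conversions are read.
Ankrd1: gttcaccactttTATTTATtcctacctatt
Thbs1: aacaatgtaataTATTTATtttgttcccct
Emp1: tatagttgctggTATTTATgtaaagggacc
Arf4: gcattccatttgTATTTATttctacccttt
Inhba: tttttcaacttaTATTTATtatttattgga
Fgf2: caaattaactagTATTTATttaccagaatt

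In genome order these stretches are chr2:117956511-117956540 for Thbs1, chr3:37461888-37461917 for Fgf2, chr6:135359710-135359739 for Emp1, chr13:16203623-16203652 for Inhba and chr14:26377537-26377566 for Arf4, all on the plus strand, and chr19:36089909-36089938 for Ankrd1 on the minus strand. The whole interval of Inhba held 5 heptamers in 4480 bases, that of Ankrd1 held 4 in 742 bases and that of Thbs1 held 3 in 2104 bases.

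Over whole intervals, the share with the AU-rich heptamer was close to that of the other eligible intervals. The heptamer TATTTAT, searched on the transcript strand, was present in 97 of 285 fast labeled intervals, or 34.0%, and in 35.1% of the other eligible intervals. When the other intervals were weighted to the members' lengths, their share was 29.5%. On the opposite strand, which is not part of the transcript, the shares were 36.8% for the members and 24.9% for the others at the members' lengths, so the excess was larger on the strand that is not transcribed. The shorter pentamer ATTTA, which the heptamer contains, was present in 83.2% of the members and in 70.4% of the others at the members' lengths, against 86.3% and 75.8% on the opposite strand. In the last 500 bases of the intervals the heptamer was present in 18.6% of the members and 14.2% of the others. The pentamer was present there in 70.9% and 57.0%. The shares in the last 500 bases were not weighted to the members' lengths, and the opposite strand was not compared. Over whole intervals, with the others again weighted to the members' lengths, the Pumilio motif TGTANATA was found in 31.2% and 28.0%. The GU-rich motif TGTTTGT was found in 28.8% and 29.4%. Seed matches of microRNAs were as close at these lengths: CTACCTC of let-7 was present in 8.42% and 7.45%, TGGTGCT of miR-29 in 13.3% and 13.7%, and ATAAGCT of miR-21 in 5.96% and 7.18%. A polyadenylation signal AATAAA lay in the last 50 bases of 68.8% of the members and of 67.9% of the other eligible intervals.

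Genes of DNA replication and mitosis had the highest share of fast labeled members of all lists of genes compiled for this tissue. Of the 26 genes of this list 8 were eligible, and the others did not reach the coverage minimum. Of the 8 eligible genes 7 were members, Cdk1, Mcm3, Mcm6, Pcna, Rrm1, Rrm2 and Top2a, against 3.65% of all eligible genes. The median rate of the 8 was 0.0532. The eighth, Mcm4, had a rate of 0.0403. Cdk1, the kinase that drives entry into mitosis, had rates of 0.0639, 0.0564 and 0.0700 in labeled 1 to 3, from 274 conversions in 4447 covered T positions, and 0.000213 over both unlabeled libraries. Rrm2, the small subunit of ribonucleotide reductase, had 0.0552, 0.0535 and 0.0725, and its large subunit Rrm1 had 0.0483, 0.0554 and 0.0563. All 6 values of this enzyme lay at or above the threshold. Pcna, the sliding clamp of DNA polymerase, had 0.0528, 0.0577 and 0.0692. Top2a, the topoisomerase that untangles replicated DNA, had 0.0508, 0.0580 and 0.0519.

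Mcm6 and Mcm3, subunits of the replicative helicase, were less even. Mcm6 had 0.0349, 0.0470 and 0.0738 on its shorter interval, with labeled 1 and 2 below the threshold, and Mcm3 had 0.0533, 0.0393 and 0.0580. The division genes were at low levels, with a median of 40.7 CPM relative to counted reads over the 8 genes, and 0 of the 8 had 1000 covered T positions in each labeled library. Lower Wilson 95% bounds were at or above the threshold for Cdk1 (0.0549), Rrm2 (0.0501), Pcna (0.0485) and Top2a (0.0481), and below it for Rrm1 (0.0454), Mcm3 (0.0422) and Mcm6 (0.0414).

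A longer list of division and nucleotide synthesis genes was put together after the members had been seen, so its counts describe the members and support nothing beyond them. Of 24 eligible genes 14 were members. They include the mitotic kinesin Kif20a (0.0582), deoxycytidine kinase Dck (0.0562), the checkpoint protein Topbp1 (0.0556), the chromosomal passenger Birc5 (0.0526), the condensin subunit Smc2 (0.0508), the centriole kinase Plk4 (0.0501), lamin B1 (Lmnb1, 0.0496), the purine synthesis enzymes Impdh1 (0.0504) and Paics (0.0486), and the spindle protein Tpx2 (0.04802). The median rate of the 24 genes was 0.0486.

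Growth factors and matricellular ligands formed another group, with 8 members among 30 eligible genes, or 26.7%, and a median rate of 0.0424 for the 30. Thbs1, a matricellular protein that activates latent TGF-β, was the most abundant of these members. It had rates of 0.0524, 0.0531 and 0.0565 in labeled 1 to 3, from 7499 conversions in 139822 covered T positions. The 3 values lay above the threshold, and the Wilson 95% interval of the pooled rate ran from 0.0525 to 0.0548. Its rates without S4U were 0.00360 and 0.00142. Ccn4, another matricellular protein, had 0.0496, 0.0537 and 0.0522, which again were above the threshold in each library.

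The secreted ligands of this list lay closer to the border. Inhba, the subunit of activin A, had rates of 0.0474, 0.0490 and 0.0493, and the EGF receptor ligands Hbegf and Ereg had 0.0449, 0.0458 and 0.0587 and 0.0459, 0.0531 and 0.0535. Fgf2 had 0.0439, 0.04802 and 0.0626, and the lymphangiogenic factor Vegfc had 0.0482, 0.0597 and 0.0464. Each of these 5 genes had at least 1 labeled library below the threshold. Relatives of these factors were found at lower rates: Ccn1 had a pooled rate of 0.0470, Fst, which binds activin, 0.0470, Ccn2 0.0433, Vegfa 0.0387, Thbs2 0.0234 and Ccn3 0.0227. Of the thrombospondins, Thbs1 thus had the highest rate of the list and Thbs2 stood near its lower end, just above Ccn3. Of 13 eligible chemokines and cytokines 1 was a member, the monocyte attractant Ccl2, with 0.0496, 0.0533 and 0.0542, while the median of the 13 was 0.0348.

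Genes of the actin cytoskeleton and targets of SRF and YAP, again listed after the members had been seen, held 12 members among 48 eligible genes. Tagln (transgelin), an actin-binding protein of smooth muscle cells and myofibroblasts, had the highest pooled rate of all eligible intervals, and its libraries differed by more than counting error. Its rates were 0.0801, 0.0608 and 0.0529 in labeled 1 to 3, and the chi-square statistic for a difference between them, divided by its degrees of freedom, was 31.7, against 1.11 for the median member. In unlabeled 1 and 2 its rates were 0.0136 and 0.00433, the higher of which was also unusual among the members, and the part of this background in the labeled rates was not tested. Its interval at chr9:45840926-45841668 overlaps the genes Pcsk7 and Gm48529 on the other strand. Ankrd1, a nuclear and sarcomeric YAP target, had 0.0557, 0.0540 and 0.0474, and radixin (Rdx), which links actin to the membrane, 0.0529, 0.0521 and 0.0488. Other members included Mical2, Mustn1, Csrp1, Pdlim1 and Ppp1r12a. Abundant genes of the same list were below the threshold, such as Tpm1 (0.0473), Cald1 (0.0451), Actb (0.0446) and Vim (0.0429).

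Prostaglandin genes, also listed after the fact, held 3 members among 6 eligible genes. Ptgs2 (cyclooxygenase 2), which makes the prostaglandin precursor, had 0.0621, 0.0747 and 0.0673 in labeled 1 to 3 and 1 conversion in 581 covered T positions without S4U. Pla2g4a, which releases arachidonic acid, had 0.0532, 0.0461 and 0.0463, and the prostaglandin reductase Ptgr2 had 0.0571, 0.0603 and 0.0595. Ptgs2 and Ptgr2 were above the threshold in each labeled library, Pla2g4a was not.

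Among abundant members outside these lists, Emp1, a tetraspan membrane protein, had the narrowest counting interval. Its rates were 0.0507, 0.0528 and 0.0525 from 7491 conversions in 144496 covered T positions, with a Wilson 95% interval from 0.0507 to 0.0530. The small GTPases of early secretory transport were as even. Arf4, which acts in coat recruitment at the Golgi, had 0.04998, 0.0501 and 0.0501, and Rab1a, which acts between ER and Golgi, had 0.05003, 0.0507 and 0.0487. With the sorting nexin Snx3 (0.0547, 0.0494 and 0.0494), Snx7, Snx13 and Rab3ip, 6 of 73 eligible genes with Rab, Arf, Arl or Snx symbols were members, or 8.22%. These symbols, and the next 3 groups, were looked up after the members had been seen.

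Splicing proteins with Snrp, Lsm or Prpf symbols held 4 members among 23, Snrpd3 (0.0533), Lsm8 (0.0499), Lsm12 (0.0490) and Prpf39 (0.0484). Aminoacyl-tRNA synthetases held 3 among 18, Yars2 (0.0521) and the intervals named Dars (0.0516) and Hars (0.0484), and mitochondrial ribosomal proteins held 2 among 37. In the list of ubiquitin ligase families 3 of 112 were members, of which Asb5, an ankyrin repeat and SOCS box protein, had 0.0543, 0.0571 and 0.0640 at chr8:55040397-55040871, with 0 conversions in 9556 covered T positions without S4U, which allows a rate of up to 0.000314. The other members of these families were Rnf113a2 (0.0555) and Asb3 (0.0487).

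Classes of regulators, many of which have short-lived messengers, held few members or none. Of 10 eligible immediate early factors 0 were members, and their median rate of 0.0342 was below the 0.0387 of all eligible genes. Egr1, the zinc finger factor of the serum response, had 0.0272, and the highest was Maff with 0.0442. No member was found among 8 Kruppel-like factors, 12 Id, Hes and related repressors, 25 feedback inhibitors of signaling, 27 mRNA decay factors, 5 circadian clock genes, 15 p53 targets and 11 G1 regulators, with list medians from 0.0367 to 0.0397. Against the 3.65% of all eligible genes, a count of 0 among 5 to 27 genes is near the background. Among transcription factor families by symbol 2 of 77 were members, Etv3 (0.0542) and Etv6 (0.0492), and among zinc finger genes 3 of 95, Zfp697 (0.0538), Zfp317 (0.0517) and Zfp318 (0.0486). The list of histone-modifying enzymes, also compiled by symbol alone, had 1 of 36, Setd3 (0.0505).

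Housekeeping classes differed from each other. Proteasome subunits held 2 members of 34, Psma6 (0.0511) and Psmc4 (0.0485), with a list median of 0.0405, above that of all eligible genes, and respiratory chain subunits had 2 of 62, Uqcrfs1 (0.0508) and Atp5pb (0.0489), with a median of 0.0333. Cytosolic ribosomal proteins (0 of 44, median 0.0262), collagen chains (0 of 17, median 0.0201), matrix glycoproteins and proteoglycans (0 of 27, median 0.0163) and lysosomal proteins (0 of 19, median 0.0119) held none. No eligible gene carried a symbol of the noncoding host gene list.

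**Figure D2:**
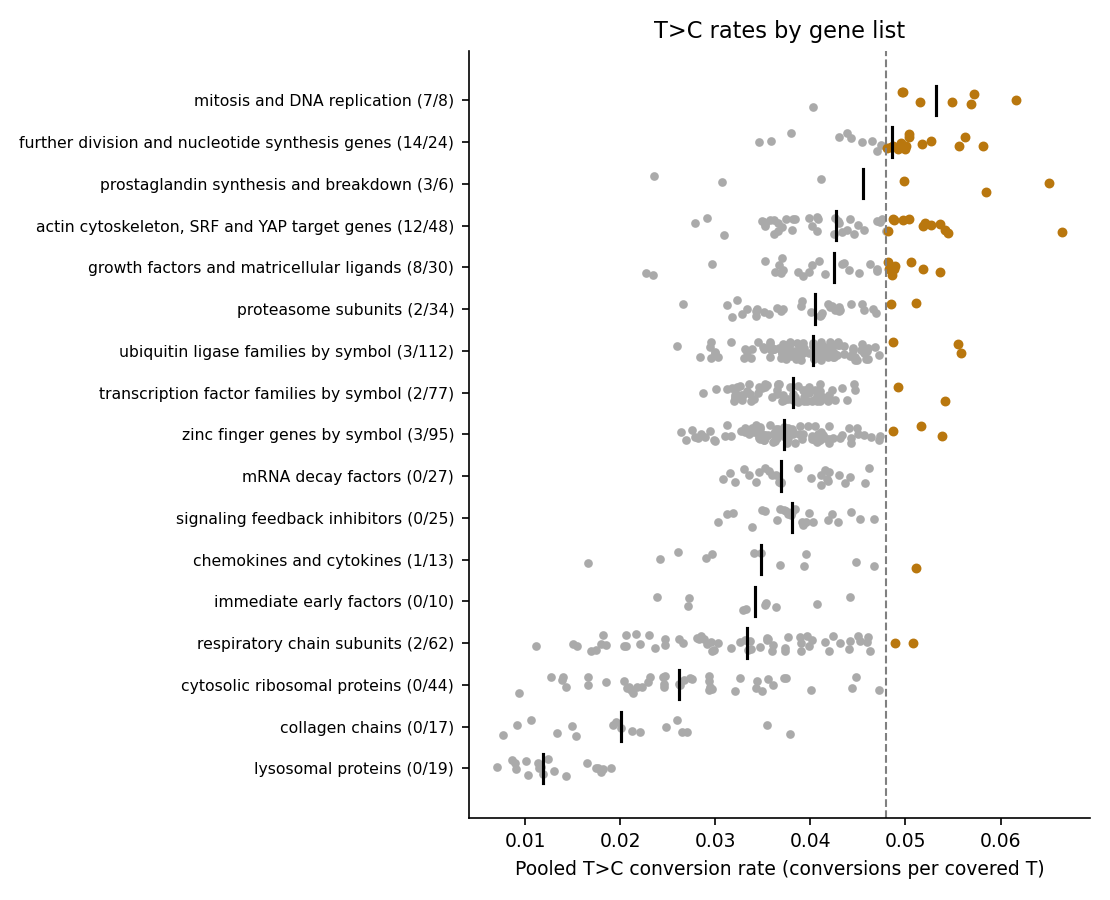
Pooled T>C conversion rate in conversions per covered T (horizontal axis) of each eligible gene for a selection of the gene lists (rows, with members and eligible genes in brackets), with fast labeled genes in brown, other genes in grey, the list median as a black bar and the threshold as a dashed line. The replication and mitosis list has 7 of 8 genes beyond the threshold, and the 19 lysosomal genes all lie below it.

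**Figure D3:**
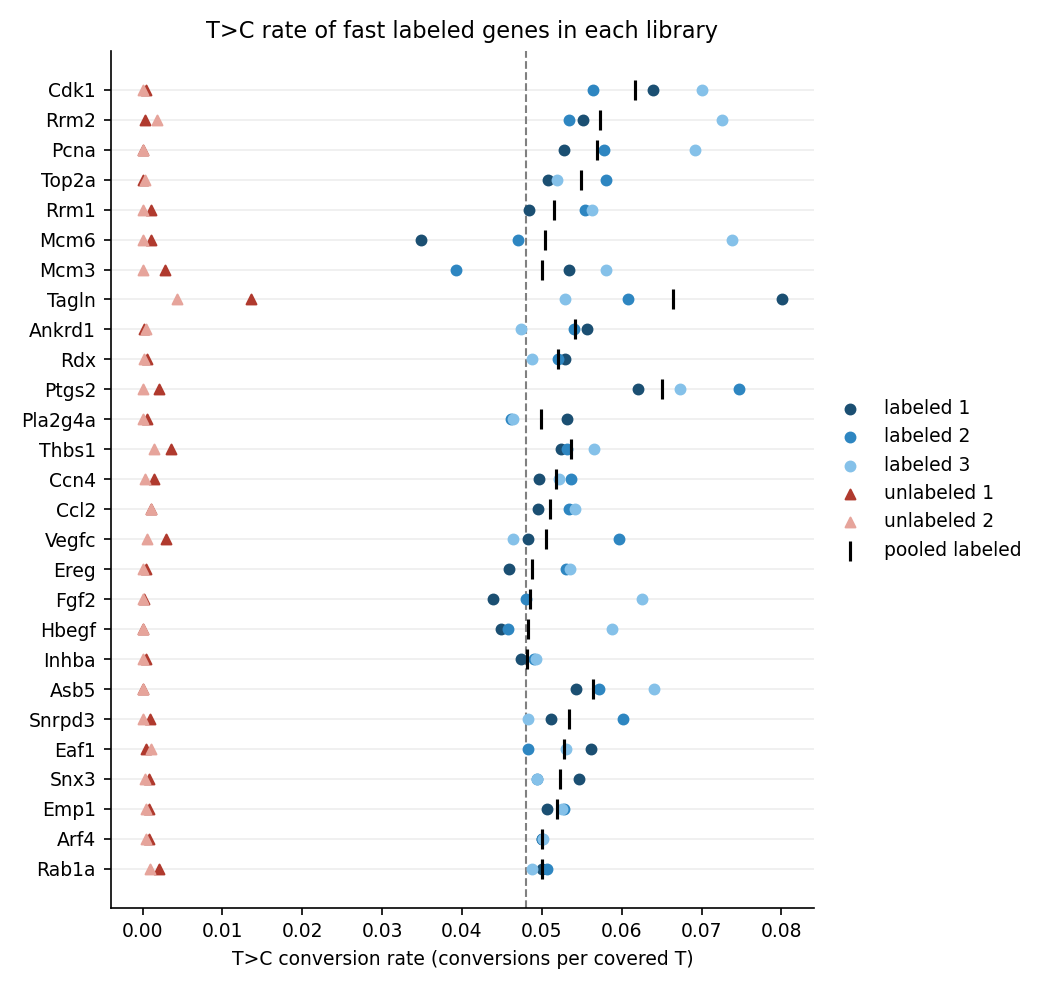
T>C conversion rate in conversions per covered T (horizontal axis) of fast labeled genes (rows) in each labeled library (blue circles) and each unlabeled library (red triangles), with the pooled labeled rate as a black bar and the threshold as a dashed line. Arf4 and Emp1 show almost no spread between labeled libraries, while Tagln runs from 0.0529 to 0.0801 and Mcm6 from 0.0349 to 0.0738.

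How far the rates held from library to library was examined by pooling the rate over 2 labeled libraries and reading the rate in the other. The 8874 eligible intervals were kept for this, so the library whose rate was left out still took part in the coverage minimum. With labeled 1 left out, 611 intervals were chosen, and 18.2% of them reached the threshold in labeled 1, against 5.71% of all eligible intervals. With labeled 2 left out, 30.9% of 434 reached it, against 8.56%. With labeled 3 left out, 39.0% of 305 reached it, against 15.9%. The median rates in the library left out were 0.0420, 0.0440 and 0.0456, above the medians of all eligible intervals (0.0379, 0.0391 and 0.0389) but below the threshold. Between 74.4% and 76.7% of the chosen intervals were above the median of the eligible intervals in the library whose rate was left out.

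**Figure D4:**
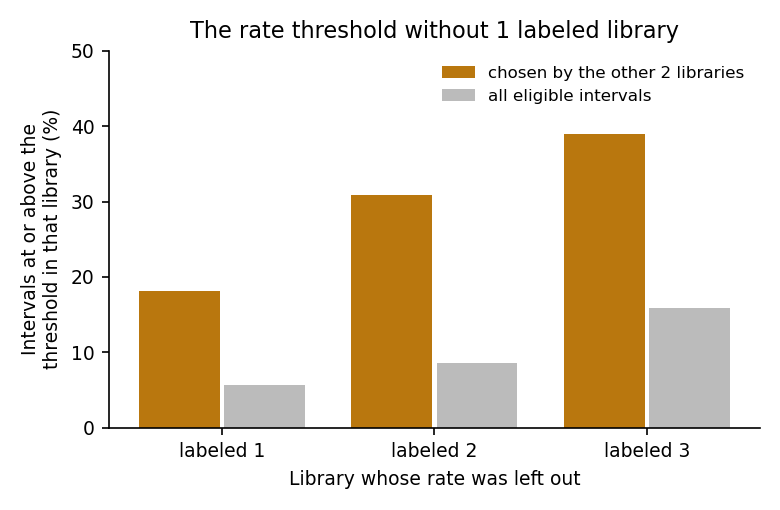
Share of intervals at or above the rate threshold in the labeled library whose rate was left out (vertical axis, percent), for intervals chosen by the pooled rate of the other 2 labeled libraries (brown) and for all eligible intervals (grey). The brown bars stand at 18.2%, 30.9% and 39.0% and the grey bars at 5.71%, 8.56% and 15.9%.

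Depth limited how firmly single members could be placed. Of the 285 intervals 36 had a lower Wilson bound at or above the threshold, 63 reached the threshold in each labeled library, and 66, of 55 genes, had at least 1000 covered T positions in each labeled library. The share of eligible intervals that were members was 4.75% at fewer than 3000 covered T positions in all, 1.56% from 12000 to under 30000, and 2.47% at 30000 or more. The members had a median of 3704 covered T positions, and the other eligible intervals 4740.

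The fast labeled intervals differed from the rest in size and base composition as well. Their median length was 994 bases, against 1404 for the other eligible intervals, and the share of members was 4.29% among intervals of up to 300 bases and 1.91% among those over 4000 bases. The extremes were Nfix (36 bases) and Fh1 (46 bases) at the short end and Sestd1 (6791 bases) and Zfp318 (7134 bases) at the long end. Members held a median of 31.7% T and 40.8% GC, and the others 30.4% and 42.7%. Across the 5563 eligible genes, which are not independent replicates and share libraries and depth, the Spearman correlation of the rate was 0.28 with T content, -0.27 with GC content, 0.12 with length and -0.08 with transcript level. Counted once per gene, member genes spanned a median of 31162 bases and other eligible genes 30214, and both had a median of 10 exons.

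Transcript levels are given as CPM relative to counted reads, which takes a single interval for each gene as the total, without scaling by length because the reads mark 3′ ends. The members had a median level of 52.0 CPM in the labeled libraries, against 71.6 for the other eligible intervals. The medians by labeled library were 53.9, 51.0 and 51.4 for the members, so the difference from the others was larger than the spread between libraries. A level of 100 CPM was reached by 57 members, or 20.0%, and by 34.95% of the other eligible intervals. Scarce messengers among the members were Plk4 (16.7 CPM) and Dck (16.8 CPM), and abundant ones were Thbs1 with 1812 ± 218 CPM (SD, n = 3) and Emp1 with 1767 ± 228 CPM (SD, n = 3).

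Background conversions without S4U were not a mark of the members as a group. The median rate over both unlabeled libraries was 0.000540 for the members and 0.000527 for the other eligible intervals, and 67 of 285 members had no conversion there, or 23.5%, against 19.4%. In 284 of 285 members every labeled rate lay above both unlabeled rates, as in 99.8% of the other eligible intervals. The exception was Alyref2, a paralog of the mRNA export adaptor Alyref, whose rates were 0.0633, 0.0622 and 0.0290 with S4U and 0.0304 and 0.0214 without it. A background of 0.005 or more was found for 7 members, or 2.46%, against 1.08% of the others. Besides Alyref2 and Tagln they were the 36-base interval of the transcription factor Nfix (0.0163 and 0.0149 in unlabeled 1 and 2), Mustn1 (3 conversions in 96 covered T positions in unlabeled 1 and 0 in 200 in unlabeled 2), Clcn5, Gprc5a and Steap2. The pooled labeled and unlabeled rates were 0.0555 and 0.0158 for Nfix and 0.0575 and 0.0273 for Alyref2. With the unlabeled rate subtracted from the pooled rate of every interval, 209 intervals met the rule, against 285 without subtraction. Beyond this, the part of the background in the labeled rates of single members was not tested.

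The read counts, which the rule did not use directly, were compared between labeled and unlabeled libraries to see whether members differed in level after 12 h with S4U. On 16563 intervals, the quasi-likelihood test of edgeR, adjusted by Benjamini-Hochberg, called 0 higher and 0 lower, with the lowest adjusted p among members at 0.532. At an unadjusted p under 0.05, 2.83% of all tested intervals were higher and 2.95% lower in the labeled libraries. Of the members 28 intervals of 23 genes were higher, or 9.82%, and 0 were lower, against 3.52% and 2.61% of the other eligible intervals. The count of 0 lower depended on the fit and on the libraries used. At an unadjusted p under 0.05 DESeq2 gave 22 members higher and 3 lower, against 178 and 140 of the 8589 other eligible intervals. Without labeled 1 edgeR gave 35 members higher and 10 lower, against 466 and 410 of the others. Without labeled 3 it gave 2 members lower, without a filter on low counts 4, and without labeled 2 it gave 0. DESeq2 called 14 intervals higher, or 0.112% of 12549 with an adjusted p. Of these, 5 were among the 285 members and 9 among the 8589 other eligible intervals. Ptgs2 is 1 of the 5, and with 100 covered T positions in unlabeled 2 it met the coverage minimum through the labeled libraries, so its call is a description. Levels of every labeled library were above both unlabeled libraries for 48 members, or 16.8%, against 9.05% of the eligible intervals, and below both for 27, or 9.47%, against 12.9%. The median log2 fold change of the members was 0.13, and that of the other eligible intervals 0.05, and 184 of 285 members were above 0, or 64.6%, against 56.3% of the others. Without labeled 1 the members' median was 0.05, with 55.8% of them and 52.6% of the others above 0, and without labeled 2 it was 0.20. The coverage minimum of the rule applied to the labeled libraries alone, so that intervals with few reads without S4U could enter through the labeled group. Among the 280 members that also had 300 covered T positions in both unlabeled libraries, an alternative chosen after seeing the data, 24 were higher, or 8.57%, against 3.18% of the other eligible intervals of this kind. Intervals of a gene shared reads. Of the 28 intervals 15 overlapped no other annotated gene, a smaller share than the 208 of all 285 members, or 73.0%, and the part of overlapping genes in these counts was not tested.

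Ptgs2 had the largest log2 fold change of reads among the members, with levels of 114, 38.5 and 55.3 CPM in labeled 1 to 3 and 10.9 and 4.02 CPM in unlabeled 1 and 2. The groups did not overlap, and the log2 fold change was 3.23 ± 0.62 (SE). Hbegf had 49.5, 70.3 and 84.97 CPM with S4U and 10.9 and 18.1 CPM without it, a log2 fold change of 2.36 ± 0.44 (SE). These 2 differences are a description, since Ptgs2 had 100 covered T positions in unlabeled 2 and Hbegf 290 in unlabeled 1, below the minimum that the labeled libraries had to meet. Tagln had 468, 517 and 777 CPM against 164 and 211 CPM, and Thbs1 had 1699.8, 1674 and 2063 CPM against 657 and 576 CPM. Their log2 fold changes were 1.76 ± 0.34 and 1.67 ± 0.25 (SE), with DESeq2 adjusted p of 0.0108 and 0.00143 and edgeR adjusted p of 0.622 and 0.532. In each of these 4 genes the lowest labeled library was more than the highest unlabeled one, as for 9.05% of all eligible intervals. With the replicate number as a block, Tagln and Thbs1 passed as higher after adjustment (log2 fold changes 1.49 and 1.53). In that fit, where labeled 3 has no unlabeled partner, 46 of the 285 members were higher and 9 lower. Of the 8589 other eligible intervals 663 were higher and 572 lower.

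The other ligands named here did not reach an adjusted p under 0.05 in either tool without a block. With the replicate number as a block, on 1 residual degree of freedom, Ccn4 passed as higher (log2 fold change 1.27). In the whole list of growth factors and matricellular ligands, 19 of 30 eligible genes had a log2 fold change above 0, where 58.0% of the eligible genes without a fast labeled interval did, and at an unadjusted p under 0.05 by edgeR 11 were higher and 4 lower, against 3.75% and 2.46% of the eligible genes without a fast labeled interval. Inhba had 829, 429 and 415 CPM with S4U and 282 and 155 CPM without it (log2 fold change 1.45). Ccn4 had 272, 325 and 267 CPM against 111 and 154 CPM (1.23), Ereg 133, 67.8 and 55.3 CPM against 47.7 and 36.1 CPM (1.13), and Fgf2 169, 166 and 164 CPM against 112 and 114 CPM (0.66). These groups did not overlap, and every labeled library was above both unlabeled ones, as for 9.05% of all eligible intervals. Vegfc had 144, 64.4 and 81.0 CPM against 133 and 76.3 CPM (-0.02), with overlapping groups. The hyaluronan receptor Cd44 had 341, 315 and 308 CPM against 157 and 204 CPM (0.93). Emp1 and Ccl2, by contrast, overlapped between groups, with 1596, 1679 and 2026 CPM against 1756 and 1779 CPM for Emp1 and 565, 307 and 294 CPM against 641 and 278 CPM for Ccl2.

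The replication and mitosis genes lay in the other direction, although none passed the test in the main fit. With the replicate number as a block, on 1 residual degree of freedom, Top2a passed as lower after adjustment (log2 fold change -1.34). Cdk1, Rrm2 and Pcna did not pass with this block. Of the 8 genes 1 had a log2 fold change above 0, Rrm1, and the median was -0.42, against 0.07 over all eligible genes. Top2a had 24.7, 64.4 and 61.3 CPM with S4U and 86.8 and 139 CPM without it (log2 fold change -1.08, unadjusted p = 0.0583 by edgeR's quasi-likelihood test). Mcm3 had 41.2, 26.8 and 31.6 CPM against 60.8 and 47.2 CPM (-0.60), and Rrm2 36.8, 51.9 and 45.5 CPM against 61.9 and 65.3 CPM (-0.40). In these 3 genes every labeled library was below both unlabeled libraries, as it was for 12.9% of all eligible intervals. The longer list of division genes was mixed, with 10 of 24 log2 fold changes above 0 and a median of -0.13. Among its members Birc5 had 48.2, 51.0 and 81.0 CPM against 90.6 and 112 CPM (-0.67), and Impdh1 and Kif20a had log2 fold changes of 0.72 and 0.30. With the replicate number as a block, Birc5 passed as lower after adjustment (-0.94), while Kif20a, Dck and Topbp1 did not pass. For Cdk1 the groups overlapped, with 39.3, 56.9 and 49.4 CPM against 49.4 and 69.3 CPM. High labeling was thus measured in genes with log2 fold changes of reads of either sign, but edgeR called 0 members higher and 0 lower after adjustment. Across the 5563 eligible genes the rate and the log2 fold change had a Spearman correlation of -0.006.

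**Figure D5:**
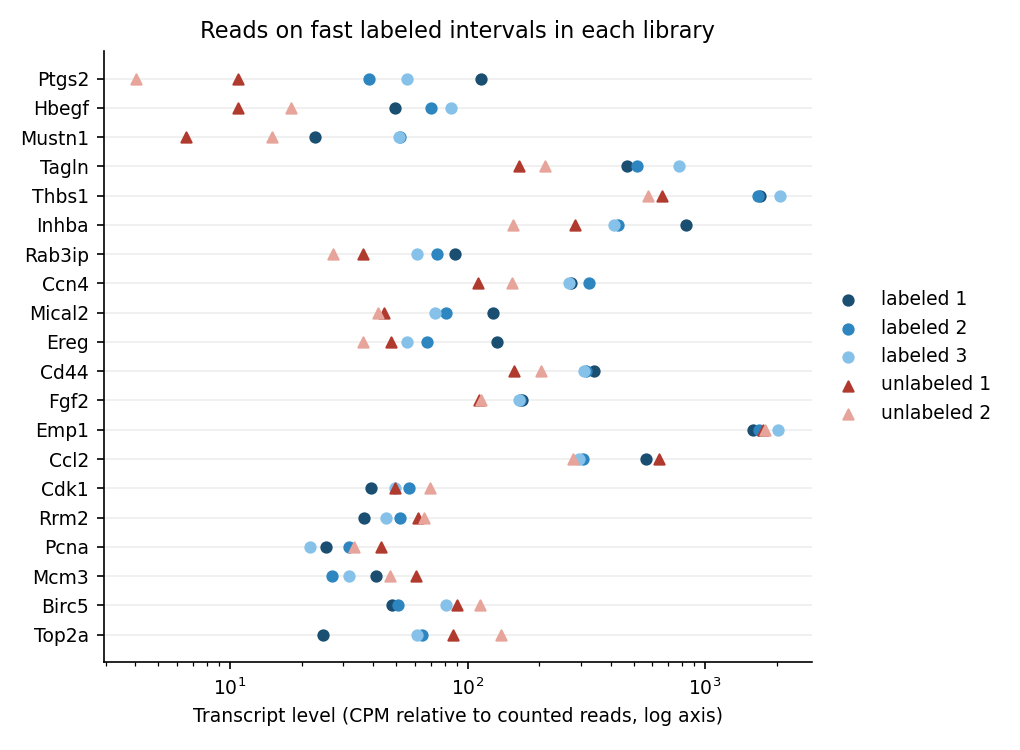
Transcript level in CPM relative to counted reads (horizontal log axis) of 20 fast labeled genes (rows) in the labeled libraries (blue circles) and the unlabeled libraries (red triangles). Ptgs2, Hbegf, Tagln and Thbs1 have every labeled library above both unlabeled ones, while Top2a, Birc5, Mcm3 and Rrm2 have every labeled library below them. Of all eligible intervals 9.05% lie above and 12.9% below in this way.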

How the data were processed

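SLAMseq libraries of cultured CF, 3 labeled and 2 unlabeled, were grouped by the labels. The authors moved the unique molecular identifiers into the read names, used SLAM-DUNK 0.4.3 on mm39, collapsed duplicates and deposited 1 table per library. The authors deposited unnormalized counts of reads, of covered T positions and of T>C conversions for each interval. The deposited conversion rate is a fraction, conversions divided by covered T positions. Their CPM, as deposited, divides reads by a larger number than the reads counted, so levels were recomputed as CPM relative to the reads counted on 1 interval per gene. How the interval set was made is not given in the sources used here.

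Of 97442 rows per table, repeats were used once. T content matched GRCm39 for 40380 of 40380 intervals on its chromosomes, and coordinates are given counted from 1. Rates were pooled as conversions over covered T positions, with Wilson 95% intervals. For 0 conversions the limit is 3 conversions of the covered T positions. Intervals and limits cover counting error only. Depth per library is given with the results. Read counts were tested with edgeR 4.0.16 (quasi-likelihood test, TMM, filterByExpr, Benjamini-Hochberg adjustment) in R 4.3.3, tested on simulated data beforehand, with DESeq2 1.42.0 as an alternative. Other steps used pandas 2.3.3, numpy 2.4.6, pysam 0.24.0, matplotlib 3.10.9 and scipy 1.17.1 under Python 3.11.15.

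The members and gene lists were chosen with earlier results of these data known, and 7 lists (actin, SRF and YAP targets, prostaglandin genes, further division genes, Rab, Arf and Snx symbols, splicing proteins, aminoacyl-tRNA synthetases and mitochondrial ribosomal proteins) after the members had been seen. A gene with a fast labeled interval is represented in the lists by that interval, and any other gene by its deepest. Named genes were the 10 members with the highest rate at 1000 or more covered T positions in each labeled library, the 10 with the highest level, the 4 deepest members of each list, the 3 intervals on each side of the threshold, the 3 members with the highest background, the longest and shortest pair, and members called by edgeR's test after adjustment, of which there were none. All other genes named were chosen after their values were seen. Results for some genes are not reported here. Alternatives were other coverage minimums, other ways of pooling, 1 interval per gene, other size factors, no filter, the replicate number as a block and each library left out in turn.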

Additional observations from a re-analysis of the deposited data

How the results depend on the processing

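The number of fast labeled intervals depended on coverage and on how the threshold was applied. It was 285 with the rule as given, 715 with a minimum of 100 covered T positions, 66 with 1000, 36 when the lower Wilson bound had to reach the threshold, 63 when each labeled library had to reach it, and 434 to 635 when a labeled library was left out. Background subtraction gave 209 and the mean of the library rates 372. With 1 interval per gene it was 194, and with shared reads counted once 221.

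The count of intervals with changed reads was 0 higher and 0 lower with edgeR, 14 and 5 with DESeq2 and 10 and 1 without a filter on low counts, and stayed at 0 when any library was left out. With the replicate number as a block (replicate block) it was 947 and 948 on 1 residual degree of freedom. Labeled 3 is alone under its number, so the difference in that fit rests on labeled 1 and 2 against unlabeled 1 and 2. Of the 285 members 46 were higher and 9 lower, and of the 8589 other eligible intervals 663 were higher and 572 lower. Deviations from the group means correlated at 0.772 for the libraries numbered 1 and 0.625 for those numbered 2. Labeled 3 and unlabeled 2, whose numbers differ, correlated at 0.467. Deviations of the 2 unlabeled libraries mirror each other by construction (correlation -1), so these values are not separate. With 2 pairs the numbers do not show a shared preparation. The members' median log2 fold change stayed above 0 in every alternative, from 0.05 to 0.20.

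The members' median level of 52.0 CPM was 4.42 in deposited CPM, a different scale, 147 with 1000 covered T positions and 51.5 to 54.0 without a labeled library. With 1000 covered T positions the other eligible intervals had a median of 176 CPM. At that depth 75.8% of the members and 83.9% of the others reached 100 CPM. The share with the heptamer was 34.0% and, in the last 500 bases, 18.6%, against 35.1% and 14.2% of the other eligible intervals. The mean of the median rates in the left-out library was 0.0439, and 0.0459 with 1000 covered T positions. In unlabeled 2 alone the background of the members was 0.000651 and that of the other eligible intervals 0.000653, while in unlabeled 1 it was 0.00120 and 0.00109. The cause of the differences was not tested.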
